A study of Mus musculus with 10 samples.

Results

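The genes described here encode the initiation and elongation factors of cytosolic translation, measured in cerebellum of mice without the clock gene Bmal1. They were chosen by name: symbols beginning with Eif1 to Eif6, Eef1 or Eef2, leaving out the Eif2ak kinases, Eif4e, Eif4g1, Eif4ebp1, Eif4ebp2 and Eef2k, and then kept where the deposited mean read count reached 20. Of 22046 genes in the table, 59 had such a name and 53 passed the read count. These 53 are called factors here, and they include 3 methyltransferases that modify elongation factors. The series compared Bmal1-/- (KO) with Bmal1+/+ (WT) littermates bred from heterozygous parents on a C57BL/6 background and kept under a light cycle of 12 h light and 12 h dark. The KO is constitutive, so every cell of the animal lacks the intact gene, and the labels give no age, sex or time of day. From each lysate of cerebellum, ribosome footprints of 28 to 34 nt and total RNA were sequenced from KO animals 1 and 3 and WT animals 2 and 3, giving 2 animals per genotype and 8 libraries.

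Initiation begins when eIF2 carries the initiator tRNA to the small ribosomal subunit, joined by eIF1, eIF1A, eIF3 and eIF5, and the eIF4 factors load this complex onto the capped end of an mRNA. After scanning to a start codon and joining of the large subunit, eEF1A brings each aminoacyl-tRNA to the ribosome and eEF2 moves the ribosome along by a codon. The kinase complex mTORC1, which the study linked to this mouse, acts on eIF4E through its binding proteins and on TOP mRNAs, whose 5′ ends begin with a run of pyrimidines and which encode ribosomal proteins and several of these factors.

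The deposited values are RPKM, in which a read count is divided by a length and by library depth. Within a gene they can be set side by side between animals. Between genes they cannot, because the factor between RPKM and reads varied from gene to gene. Translational efficiency is the quotient of footprint and total RNA values in 1 animal, in which that factor cancels. Depth, as reads recovered from the values, was 38.9 and 43.2 M in KO total RNA against 25.6 and 27.8 M in WT total RNA. Footprint libraries held 41.0 and 30.1 M reads in KO and 38.1 and 27.7 M in WT. Both KO total RNA libraries were deeper than both WT ones, so depth and genotype cannot be told apart in total RNA. The targeted gene, listed as Arntl, had a translational efficiency of 0.463 and 0.393 in KO animals, against 1.44 and 1.64 in WT animals. Its footprints were at 123.7 and 106.9 RPKM in KO and 257.6 and 294.7 RPKM in WT. Its total RNA was at 267.4 and 272.2 RPKM in KO and 178.8 and 179.4 RPKM in WT, a value per gene that does not by itself check a deletion inside it. Tissue content also differed between animals. The summed total RNA RPKM of 5 choroid plexus markers was 12370 and 14560 in KO animals against 5691 and 260.2 in WT animals, and that of 5 brainstem markers was 4.43 and 8.26 in KO against 86.6 and 1.89 in WT. Such sums, here and below, weight each gene by its own factor. They can follow a single gene and serve only to compare animals. In bulk tissue, fewer cells of a type and less RNA per cell cannot be told apart.

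By limma no factor passed the threshold between the genotypes in total RNA, footprints or translational efficiency. Differences are given as log2 fold changes, KO minus WT, on the log2(RPKM + 1) scale, and a gene is called where the adjusted p of limma (Benjamini-Hochberg over all genes tested) is under 0.05. In total RNA 0 of 52 tested factors were called, where 4.09% of all 12690 genes tested were. At an unadjusted p under 0.05 there were 7 factors, against a background of 22.1%, and limma-voom on recovered reads called 1 factor, Eif4a1, against 11.8% of all genes. The median factor stood at -0.028, or -0.079 without WT animal 2, and the median of all genes at -0.017. The factors lay between -0.32 (Eif4a1) and 0.35 (Eef2kmt). For 49 of the 52, the 95% interval stayed within 1.5-fold in either direction, and for all 52 within 2-fold.

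Footprints gave 0 calls among 51 tested factors, where 0.233% of 12447 genes were called. The targeted gene, Arntl, was itself not called there, at -1.25 (SE 0.14, adjusted p = 0.0589 by limma). A difference of that size can thus go uncalled in footprints. Arntl was called in total RNA at 0.59 and in efficiency at -1.84 (adjusted p = 0.0158 and 0.0367 by limma). No factor had an unadjusted p under 0.05 in limma, where 10.4% of genes did, and limma-voom called 0 factors against 1.69% of all genes. The median was -0.030 for the factors and -0.028 for all genes, and for the factors it was 0.002 after quantile normalization and -0.059 without WT animal 3. Values ran from -0.28 (Eif4e2) to 0.46 (Eif5a2). Here 35 of 51 intervals stayed within 1.5-fold and 49 within 2-fold, and Eif2s2 and Eef2kmt were the exceptions to the wider limit.

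Translational efficiency, tested with an interaction term over footprint and total RNA libraries, had 0 called factors of 51, beside 0.0165% of 12089 genes. In limma 0 factors had an unadjusted p under 0.05, against 4.55% of all genes, and limma-voom called 0, against 0.00835%. The median was -0.013 for the factors and -0.018 for all genes, and its sign turned with 0.067 without WT animal 2, 0.026 without KO animal 3 and 0.015 after quantile normalization. The factors ran from -0.42 (Eef2kmt) to 0.45 (Eif5a2), and 27 of 51 intervals stayed within 1.5-fold and 50 within 2-fold. Adding 1 RPKM understates the change of low genes and narrows their intervals. For Eef2kmt the difference was -0.77 with 0.1 RPKM added, -0.995 by limma-voom and 0.26 without KO animal 1. Where an efficiency interval went beyond 1.5-fold, it holds a difference of that size in at least 1 direction, with 2 animals per genotype.

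**Figure D1:**
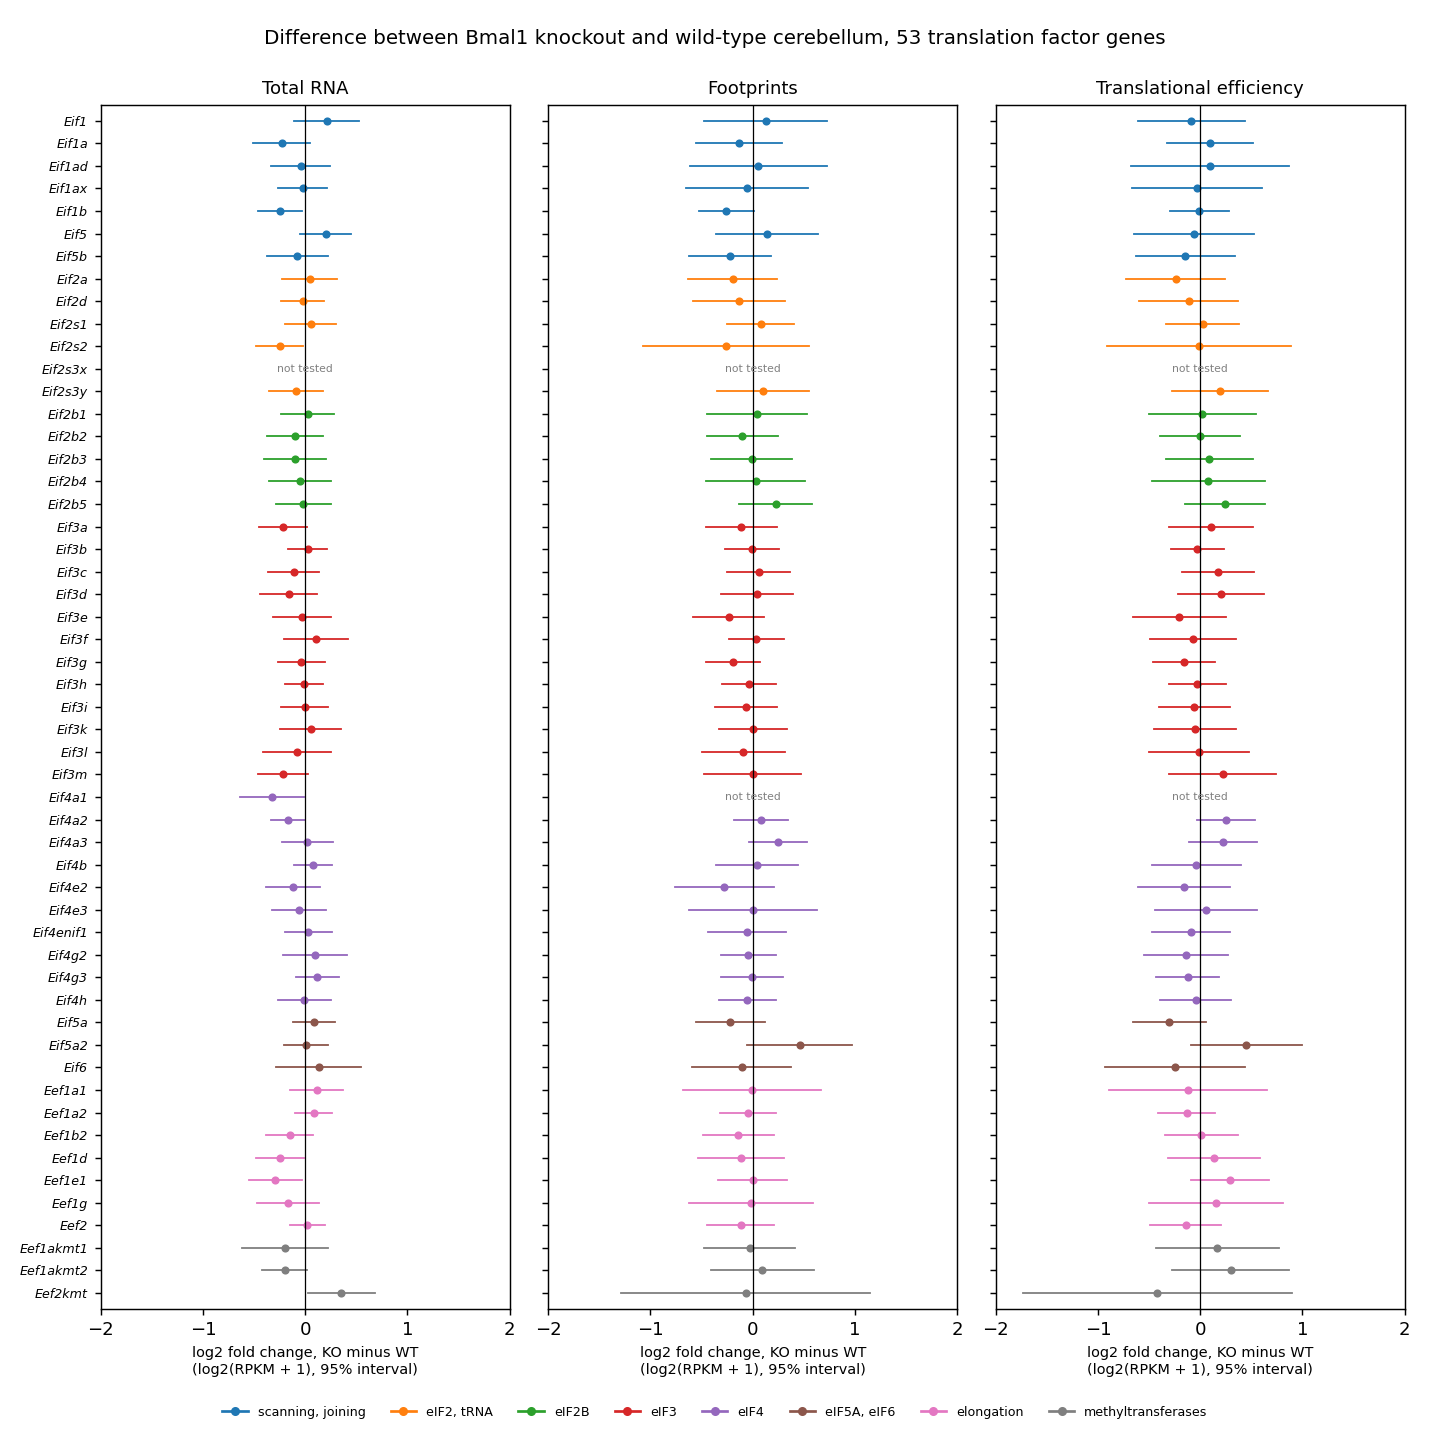
Log2 fold changes, KO minus WT, on the log2(RPKM + 1) scale in a row for each of the 53 factor genes, with points and 95% intervals from limma for the 52 tested in total RNA and the 51 tested in footprints and translational efficiency, "not tested" for the others, and colours for the role of each factor. The points gather around 0 in all 3 panels, between -0.42 and 0.46, and the intervals are wider for footprints and efficiency than for total RNA.

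Complete separation of the animals was no more common among the factors than among all genes, except in 1 direction by a small margin. In total RNA both KO animals were higher than both WT animals for 5 factors (9.62%, against 24.7% of all genes) and lower for 16 (30.8%, against 30.3%). In footprints 3 factors (5.88%) were higher and 8 (15.7%) lower, beside 17.1% and 22.6% of all genes. In efficiency 7 (13.7%) were higher and 7 (13.7%) lower, beside 14.3% and 17.5% of all genes. A share near or under that of all genes says nothing particular about the factors.

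Because BMAL1 with its partner CLOCK binds the E-box CACGTG, promoters were searched for these letters. RefSeq windows (GRCm38.p6) ran from 250 bases before to 50 after a start, which need not be the annotated edge of the gene. The motif is its own reverse complement, so 1 search covers both strands. A window was available for 42 of the 53 factor genes, and 9 of these (21.4%) held CACGTG, against 8.09% of 27025 genes with a window and 11.6% of the 10450 genes whose mean read count reached 20. The 9 genes are Eef2, Eif1b, Eif3a, Eif3f, Eif3k, Eif4a1, Eif4h, Eif5a and Eif5a2. Sites of 7 of them are shown because these are the letters that the deleted factor is known to bind. Each line gives 40 bases, 5′ to 3′ on the strand of the gene, with the motif in capitals.
Eef2: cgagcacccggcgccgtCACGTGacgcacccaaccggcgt
Eif1b: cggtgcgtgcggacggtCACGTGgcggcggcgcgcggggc
Eif3f: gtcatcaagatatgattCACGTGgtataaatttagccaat
Eif3k: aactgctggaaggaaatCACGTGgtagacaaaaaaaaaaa
Eif4a1: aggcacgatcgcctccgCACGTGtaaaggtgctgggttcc
Eif4h: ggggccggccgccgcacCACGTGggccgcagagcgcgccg
Eif5a2, upstream site: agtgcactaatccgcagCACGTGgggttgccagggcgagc
Eif5a2, downstream site: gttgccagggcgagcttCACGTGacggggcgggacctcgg

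The windows lie at chr10:81176571-81176610 (plus strand) for Eef2, chr9:120492565-120492604 (plus) for Eif1b, chr7:108934330-108934369 (plus) for Eif3f, chr7:28981910-28981949 (minus) for Eif3k, chr11:69672590-69672629 (minus) for Eif4a1 and chr5:134639483-134639522 (minus) for Eif4h. Those of Eif5a2 lie at chr3:28781118-28781157 and chr3:28781143-28781182 (plus). From the start in the window, the motif began 43 bases upstream in Eef2, 24 in Eif1b, 68 in Eif3f and 44 in Eif3k. That start was the annotated gene edge in 60.4% of all windows. The Eif1b site lies inside the gene span given below for Eif1b. By limma 0 of the 9 genes were called in total RNA, with a median of 0.007, and 0 of 32 tested factor genes without the motif, with a median of -0.031. The gene that limma-voom called, Eif4a1, is among the 9. Over all genes, 3% of those with the motif and 4.07% of those without it were called in total RNA. The shares were 0.434% with it and 0.21% without it in footprints, and 0.0885% and 0.012% in efficiency, from 5, 18, 1 and 1 called genes. In footprints the medians were -0.083 over 8 tested factors with the motif and -0.004 over 32 without it. The ranges overlapped, from -0.257 to 0.458 with the motif and from -0.278 to 0.245 without it. Over all genes the footprint medians were -0.03 with the motif and -0.027 without it. A match is a run of letters in a window and was not tested as a binding site.

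Among the factors of scanning and subunit joining, 7 genes in all, Eif1b had the lowest difference in total RNA and in footprints. Eif1b (ENSMUSG00000006941, chr9:120492232-120495330, plus strand, GRCm38) is a close relative of Eif1, which guards the choice of the start codon. Its total RNA was at 134.6 and 136.9 RPKM in KO animals against 169.3 and 153.9 RPKM in WT animals. Its footprints were at 261.1 and 265.9 RPKM in KO and 318.2 and 311.8 RPKM in WT. Both KO animals were thus below both WT animals in both kinds of library. The differences were -0.25 (SE 0.088, adjusted p = 0.179 by limma) in total RNA and -0.26 (SE 0.11, adjusted p = 0.498 by limma) in footprints, and efficiency differed by -0.01, with an interval of 0.814- to 1.21-fold. Its adjusted p in total RNA is the lowest of any factor.

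Eif5, which triggers GTP hydrolysis by eIF2 at the start codon, had total RNA of 385.7 and 337.9 RPKM in KO and 334.1 and 295.6 RPKM in WT. The 2 KO values lay above the 2 WT values, narrowly for the nearest pair. Its footprints overlapped, at 475.1 and 321.3 RPKM in KO and 348.5 and 361.3 RPKM in WT. The difference was 0.20 (SE 0.10, adjusted p = 0.325 by limma) in total RNA and 0.14 (SE 0.20, adjusted p = 0.907 by limma) in footprints, where it was -0.14 without KO animal 1. Eif1 was at 10.7 and 8.61 RPKM of total RNA in KO and 8.21 and 8.09 RPKM in WT, a difference of 0.21 (SE 0.13). That gene shares 99.0% of its 30-base coding windows with transcripts of other genes, so its values are uncertain. Between the genotypes its total RNA did not overlap. The other members of this group are Eif1a, Eif1ad, Eif1ax and Eif5b, the last a GTPase that joins the subunits. Over the 7 genes the median was -0.045 in total RNA, -0.054 in footprints and -0.030 in efficiency, with 0 called each time.

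The 3 subunits of eIF2 are encoded by Eif2s1, Eif2s2 and the pair Eif2s3x and Eif2s3y on the sex chromosomes. Eif2s1 encodes the alpha subunit, which the stress kinases phosphorylate to lower initiation. Its total RNA was at 35.4 and 38.1 RPKM in KO and 33.6 and 37.3 RPKM in WT, and its footprints at 48.7 and 44.8 RPKM in KO and 43.3 and 45.2 RPKM in WT. The genotypes overlapped in both, and the 95% interval of the footprint difference ran from 0.841- to 1.32-fold.

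Eif2s2, the beta subunit, had total RNA of 62.5 and 62.3 RPKM in KO animals against 78.5 and 70.3 RPKM in WT animals. Both KO values were the lower ones (-0.25, SE 0.095, adjusted p = 0.203 by limma). Its footprints were spread widely within the KO, at 98.5 and 50.0 RPKM, beside 77.7 and 91.6 RPKM in WT. That difference was -0.26 (SE 0.32), and 0.22 without KO animal 3. Shared coding windows make up 84.3% of this gene. Eif2s3y, read in all 4 animals, was at 6.30 and 6.78 RPKM of total RNA in KO and 7.05 and 6.99 RPKM in WT, and its footprints were at 12.9 and 10.1 RPKM in KO and 10.9 and 10.2 RPKM in WT. Its X-linked copy, Eif2s3x, had a mean RPKM under 1 and was not tested, at 0.714 and 0.891 RPKM of total RNA in KO and 0.806 and 0.860 RPKM in WT. For Eif2s3x 95.0% of the coding windows are shared, and in the fit that filters on read count instead, its differences were -0.03 in total RNA and 0.10 in footprints (adjusted p = 0.903 and 0.939 by limma). Eif2a and Eif2d, which can bring initiator tRNA without eIF2, differed by -0.24 and -0.11 in efficiency. For Eif2a that is 2.26 and 1.76 in KO against 2.29 and 2.47 in WT (adjusted p = 0.997 by limma).

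The exchange factor eIF2B, which recharges eIF2 with GTP, has 5 subunits, and all of them were tested. Their total RNA differences lay between -0.10 (Eif2b2) and 0.02 (Eif2b1). Each interval, in total RNA and in footprints, stayed within 1.5-fold. Eif2b5, the catalytic subunit, had footprints of 23.1 and 23.1 RPKM in KO animals against 18.6 and 20.7 RPKM in WT animals, and total RNA of 34.9 and 34.7 RPKM in KO against 32.5 and 38.3 RPKM in WT. The footprint values did not overlap, and the difference was 0.22 (SE 0.14, adjusted p = 0.713 by limma). Its efficiency was 0.662 and 0.664 in KO and 0.573 and 0.541 in WT.

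For eIF3, the scaffold that holds the initiation complex on the small subunit, 12 subunit genes passed the read count, and all of these were tested. The eIF3 genes Eif3j1 and Eif3j2 did not pass it, and their values are given below without a fit. Their total RNA differences ran from -0.22 (Eif3m) to 0.10 (Eif3f) and their footprint differences from -0.24 (Eif3e) to 0.06 (Eif3c). All 12 intervals stayed within 1.5-fold in total RNA and in footprints, and 9 of 12 in efficiency. Eif3a, the largest core subunit, had total RNA of 194.2 and 224.6 RPKM in KO against 246.1 and 239.1 RPKM in WT, and footprints of 478.7 and 391.5 RPKM in KO against 487.4 and 449.4 RPKM in WT. In total RNA both KO animals lay below both WT animals (-0.21, SE 0.097, adjusted p = 0.262 by limma). In footprints the genotypes overlapped. Eif3e had footprints of 644.8 and 519.1 RPKM in KO and 688.5 and 674.7 RPKM in WT, again without overlap (-0.24, SE 0.14, adjusted p = 0.671 by limma). Its total RNA overlapped, at 320.0 and 369.8 RPKM in KO and 382.7 and 322.8 RPKM in WT.

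The eIF4 group holds helicases, scaffolds and cap-binding proteins. Eif4a1 (ENSMUSG00000059796, chr11:69666936-69672423, minus strand) and Eif4a2 (ENSMUSG00000022884, chr16:23107444-23114136, plus strand) encode near-identical RNA helicases that unwind the 5′ ends of mRNAs. Total RNA of Eif4a1 was at 1.55 and 1.63 RPKM in KO animals, against 2.24 and 2.24 RPKM in WT animals. Both KO values lay below both WT values, and the pairs within a genotype lay close together. The difference was -0.32 (SE 0.13, adjusted p = 0.216 by limma), and limma-voom on recovered reads gave -0.47 with an adjusted p of 0.0426. This is the only factor that any of the alternatives called. The reads behind it were 469 and 548 in KO and 456 and 486 in WT, from libraries that were deeper in KO. Of its 30-base coding windows 99.2% are also found in other annotated transcripts, so its values are uncertain. Its footprints were below the limit for testing, at 0.379 and 0.508 RPKM in KO and 0.325 and 0.719 RPKM in WT, and under the read count filter they differed by -0.07 (adjusted p = 0.958 by limma).

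Eif4a2 had total RNA of 3943 and 4252 RPKM in KO animals against 4561 and 4645 RPKM in WT animals. Its KO values were the lower ones (-0.17, SE 0.069, adjusted p = 0.223 by limma). Footprints overlapped, at 6040 and 5703 RPKM in KO and 5210 and 5919 RPKM in WT. Efficiency was 1.53 and 1.34 in KO and 1.14 and 1.27 in WT, with no overlap, and the interval ran from 0.975- to 1.45-fold. Its coding sequence shares 40.6% of its windows.

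Eif4a3, the related helicase of the exon junction complex, had footprints of 172.5 and 183.0 RPKM in KO animals against 151.8 and 147.7 RPKM in WT animals. The difference was 0.25 (SE 0.11, adjusted p = 0.554 by limma), and total RNA overlapped, at 62.7 and 58.8 RPKM in KO and 56.2 and 63.6 RPKM in WT. For Eif4e2, a cap-binding homologue of eIF4E that represses translation, footprints were at 4.23 and 3.68 RPKM in KO and 4.65 and 5.37 RPKM in WT. That difference of -0.28 (SE 0.19, adjusted p = 0.748 by limma) was the lowest among the footprint values, and its interval ran from 0.590- to 1.15-fold. Eif4g2, a scaffold that works without the cap-binding protein, overlapped between genotypes in both kinds of library. It had 677.9 and 629.1 RPKM of total RNA in KO and 693.9 and 540.3 RPKM in WT, and 381.6 and 380.3 RPKM of footprints in KO and 378.2 and 408.0 RPKM in WT.

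The paralogues of eIF5A lay on opposite sides of 0 in footprints and efficiency. This factor carries the modified residue hypusine and helps ribosomes past difficult stretches. Footprints of Eif5a2 (ENSMUSG00000050192, chr3:28781276-28798846, plus strand) were at 37.3 and 28.9 RPKM in KO animals against 27.1 and 20.6 RPKM in WT animals. Both KO values exceeded both WT values, and this was the highest footprint difference of any factor (0.46, SE 0.20, adjusted p = 0.539 by limma, interval 0.963- to 1.96-fold). Without single animals it lay between 0.27 and 0.65. Total RNA of Eif5a2 was level, at 111.0 and 111.3 RPKM in KO and 115.6 and 106.0 RPKM in WT, a difference of 0.01 (SE 0.087). Efficiency was 0.336 and 0.259 in KO and 0.234 and 0.194 in WT (0.45, SE 0.23, adjusted p = 0.997 by limma).

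Eif5a (ENSMUSG00000078812, chr11:69916714-69921958, minus strand) lay the other way. It had footprints of 203.9 and 203.5 RPKM in KO and 259.7 and 216.5 RPKM in WT, with total RNA of 160.7 and 151.1 RPKM in KO and 151.2 and 142.9 RPKM in WT. Its efficiency was 1.27 and 1.35 in KO animals against 1.72 and 1.51 in WT animals (-0.30, SE 0.15, adjusted p = 0.997 by limma, interval 0.632- to 1.04-fold). Neither paralogue passed the threshold, and the contrast between the paralogues was not tested. Of Eif5a, 43.0% of the windows are shared with other genes, and of Eif5a2 none. Eif6, which keeps the large subunit from joining early, varied as much within a genotype as between them, with total RNA of 102.8 and 99.6 RPKM in KO and 76.7 and 110.8 RPKM in WT. Its difference was 0.13 (SE 0.17), and -0.13 without WT animal 2.

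**Figure D2:**
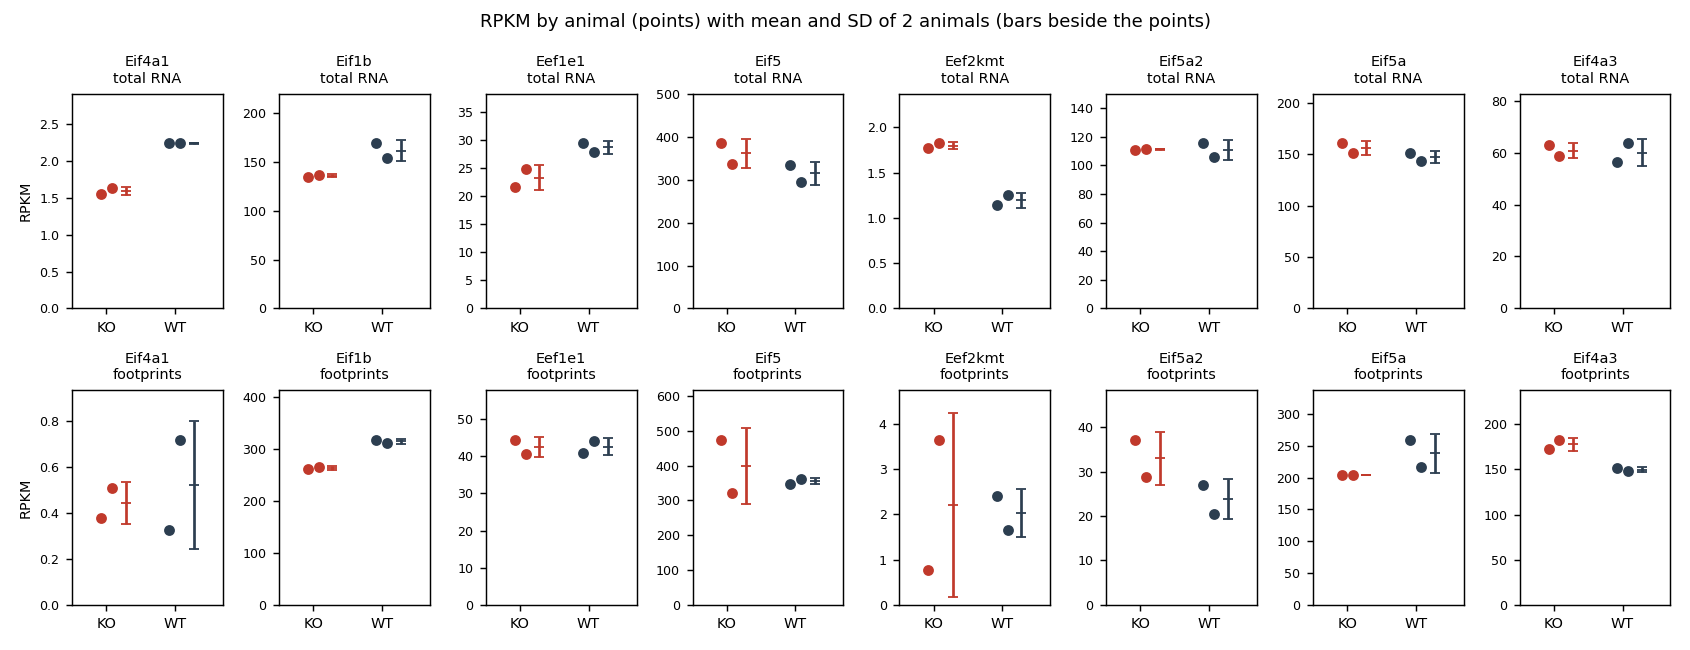
RPKM of 8 factor genes by animal in total RNA (top) and footprints (bottom), KO left of WT, with points for the 2 animals of a genotype and bars for mean and SD. The genes are 8 of those with the highest or lowest differences, and in Eif1b both rows show KO below WT, while in Eif5a2 the footprints are higher in KO (37.3 and 28.9 against 27.1 and 20.6 RPKM) and the total RNA overlaps.

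Of the elongation factors, Eef2, the translocase, had 926.4 and 931.5 RPKM of total RNA in KO animals and 930.0 and 900.1 RPKM in WT animals. Its footprints were at 720.8 and 883.8 RPKM in KO and 883.1 and 851.2 RPKM in WT. The KO values enclosed or overlapped the WT values in both, and the intervals were 0.903- to 1.14-fold in total RNA and 0.731- to 1.16-fold in footprints. Eef1a2, the eEF1A form of neurons and muscle, had 380.7 and 384.6 RPKM of total RNA in KO against 355.9 and 366.0 RPKM in WT, and footprints of 972.6 and 1078 RPKM in KO against 1093 and 1027 RPKM in WT. Its total RNA difference was 0.08 (SE 0.074, adjusted p = 0.550 by limma). Eef1a1, the form found in most other cells, had footprints that spread within the KO, at 197.7 and 329.7 RPKM, beside 227.9 and 289.3 RPKM in WT, and 88.5% of its windows are shared. Its footprint difference was -0.008 (SE 0.27), and 0.36 without KO animal 1.

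The exchange factor of eEF1A was represented by Eef1b2, Eef1d and Eef1g, each lower in both KO animals than in both WT animals in total RNA. Eef1b2 had 30.1 and 32.2 RPKM in KO and 33.8 and 35.5 RPKM in WT (-0.15, SE 0.095, adjusted p = 0.407 by limma). Its footprints were at 36.0 and 39.6 RPKM in KO and 43.6 and 39.9 RPKM in WT, and efficiency differed by 0.01. Eef1e1, a small protein of the multisynthetase complex that resembles these subunits, had 21.8 and 25.0 RPKM of total RNA in KO against 29.5 and 28.0 RPKM in WT (-0.29, SE 0.11, adjusted p = 0.192 by limma). Its footprints overlapped fully, at 44.5 and 40.7 RPKM in KO and 40.9 and 44.2 RPKM in WT. The footprint difference was 0.0, with an interval of 0.791- to 1.26-fold.

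Methyltransferases that modify elongation factors also matched by name, and 3 of them passed the read count. They are enzymes that act on the factors, and the naming rule counts them among the factors here. Eef2kmt, which methylates a lysine of eEF2, had total RNA of 1.77 and 1.83 RPKM in KO and 1.14 and 1.25 RPKM in WT. The difference was 0.35 with 1 RPKM added (SE 0.13, adjusted p = 0.201 by limma), 0.56 with 0.1 RPKM added, and 0.60 by limma-voom on recovered reads (adjusted p = 0.124). Its footprints were at 0.775 and 3.66 RPKM in KO and 2.41 and 1.67 RPKM in WT, so the 2 KO animals bracketed the WT animals. With a mean read count of 152.97 it is among the least covered members, and its efficiency interval, from 0.301- to 1.86-fold, is the widest. Eef1akmt2 had an efficiency of 1.57 and 1.16 in KO and 1.31 and 0.920 in WT (0.30, SE 0.25).

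TOP mRNAs bear on the link to mTORC1, and 9 of these factors are on the list used here: Eef1a1, Eef1b2, Eef1d, Eef1g, Eef2, Eif3e, Eif3f, Eif3h and Eif4b. Their median difference was -0.008 in total RNA, -0.036 in footprints and -0.037 in efficiency, with 0 called in each, 1 at an unadjusted p under 0.05 in total RNA, and 0 in footprints and efficiency. All 9 efficiency intervals stayed within 2-fold. Start sites in the RefSeq table were read for pyrimidine runs in 15 bases on each side of the start. Each line shows these 30 bases, 5′ to 3′, with the longest run of C and T in capitals, for 4 genes of the list and for Eif2b5, which is not on it and has the longest run of all the factors.
Eif3f: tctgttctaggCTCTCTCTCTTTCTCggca
Eef1a1: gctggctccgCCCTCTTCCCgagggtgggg
Eif4b: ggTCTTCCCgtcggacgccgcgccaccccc
Eef2: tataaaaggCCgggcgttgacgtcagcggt
Eif2b5: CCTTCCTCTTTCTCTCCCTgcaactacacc

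These windows lie at chr7:108934400-108934429 (plus) for Eif3f, chr9:78481710-78481739 (minus) for Eef1a1, chr15:102073758-102073787 (plus) for Eif4b, chr10:81176616-81176645 (plus) for Eef2 and chr16:20498802-20498831 (plus) for Eif2b5, in GRCm38.p6. The runs held 15 bases in Eif3f, 10 in Eef1a1, 7 in Eif4b, 2 in Eef2 and 19 in Eif2b5. Eef1b2, also on the list, had a run of 4, and Eef1d, Eef1g, Eif3e and Eif3h had no window. Of the 42 factor genes with a window, 10 (23.8%) had a run of at least 8 in a window, as had 13.9% of all 27025 genes in the RefSeq table. On the list only Eif3f and Eef1a1 had such a run, and the other factors with one are not on it. The median longest run over all windows was 4. The annotated start can lie some bases from the start used in cerebellum, so a short run says only that these letters are not in this window.

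As levels rather than differences, the median factor had a higher translational efficiency than most genes in both genotypes. The median over the 53 factors was 1.44 in KO and 1.46 in WT, where the median of all 13331 genes whose mean read count reached 20 was 0.954 in KO and 0.961 in WT. The median factor stood at percentile 75.2 and 71.1 of all genes in the KO animals and 75.0 and 69.0 in the WT animals. In WT, 40 of 53 factors lay above the median of all genes. Such levels were not particular to the factors. Of 19 release, recycling and accessory factors 17 lay above that median in WT, and their own median was 1.622. Of 10 mitochondrial translation factors 7 did, with a median of 1.501. The 9 regulators and factors left out by the naming rule were lower, with 3 above it and a median of 0.741. All values here are ratios, and the percentiles describe these libraries without a test. The counting region is not known for any gene, and its part in these levels was not tested.

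The groups differed among themselves in efficiency. All 12 eIF3 genes that passed the read count lay above the median of all genes. Their group median was 2.17 in KO and 2.05 in WT, with WT means from 1.60 (Eif3i) to 3.89 (Eif3g). Among eIF2B subunits the median was 2.09 in KO and 2.06 in WT, but Eif2b5 stood at a WT mean of 0.557 and Eif2b3 at 2.70. The eIF4 group was low, with a median of 0.726 in KO and 0.762 in WT, 4 of 10 above the median of all genes, and WT means from 0.206 (Eif4e3) to 2.51 (Eif4a3). For the elongation factors the median was 1.45 in KO and 1.29 in WT, from 0.784 (Eef1a1) to 2.94 (Eef1a2) in WT. Paralogues stood far apart: Eif5a2 had a WT mean of 0.214 and Eif5a of 1.62, and Eif1 had the lowest of all factors, 0.166. Eif1 shares 99.0% of its coding windows with other transcripts, Eif4a1 99.2%, Eif4e3 51.2% and Eif5a 43.0%, so their levels are uncertain. The counting region and the treatment of shared reads are not given in the sources used here. In the 4 animals the median of the eIF3 genes lay between 2.06 and 2.31, and that of the eIF4 genes between 0.681 and 0.837.

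**Figure D3:**
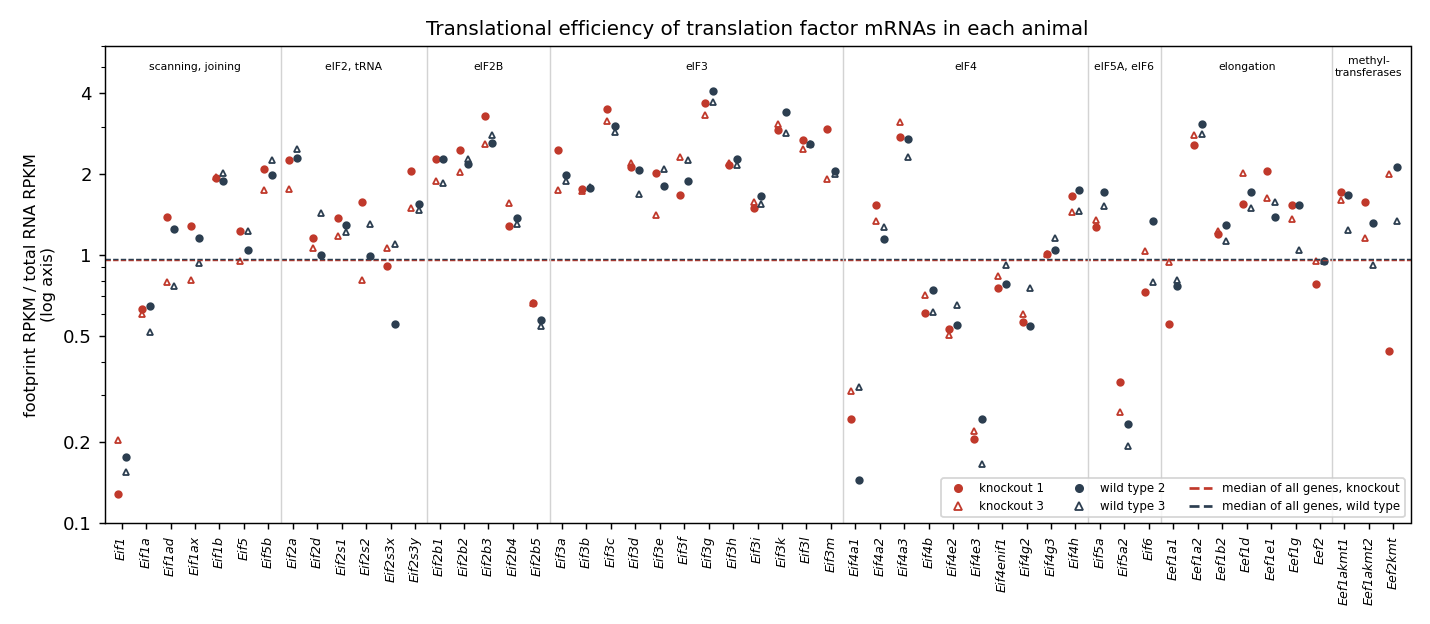
Translational efficiency, footprint RPKM over total RNA RPKM on a log axis, of the 53 factor genes in each animal, with KO in red left of WT in dark blue and dashed lines at the median of all genes (0.954 in KO, 0.961 in WT). The 12 eIF3 genes lie above the lines in all 4 animals, while most eIF4 genes, Eif1, Eif2b5 and Eif5a2 lie below them.

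To set genes beside each other, recovered footprint reads were divided by coding length and by depth, giving reads per coding kb and per M reads (a density). This assumes that the counted reads fall in the coding sequence, since the counting region is not given in the sources used here. Eef1a2 had the highest density, 1736 in KO and 1783 in WT (means of 2 animals). The 5 eIF2B subunits, which assemble in equal numbers, lay within 1.99-fold of each other in KO and 2.18-fold in WT, from 20.6 (Eif2b5) to 44.9 (Eif2b1) in WT. The 12 eIF3 subunits that passed the read count spread over 8.27-fold in KO and 7.03-fold in WT, with a median of 102 in KO and 107 in WT. With the 7 eIF3 genes that share under 10% of their windows, the spread was 6.79-fold in KO and 6.73-fold in WT, from 45.1 (Eif3b) to 303.4 (Eif3k) in WT.

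Several of the lowest densities belong to genes whose coding windows also occur in other annotated transcripts. Eif4a1, Eif1, Eef1g and Eif2s3x share 99.2%, 99.0%, 95.2% and 95.0% of their windows, and their densities were 3.08, 13.4, 12.6 and 2.31 in WT, beside 2.64, 15.6, 12.2 and 2.68 in KO. Eef1g is a subunit of the same exchange complex as Eef1b2. Whether reads that match several genes were dropped, split or assigned is not given in the sources used here, so levels of these genes are uncertain. Low density was not confined to them: Eef2kmt, with 6.9% shared, stood at 5.41 in WT and Eif2d, with 1.8%, at 13.5. Eef1a1, with 88.5% shared, had 82.95 and 105.2 in the WT animals.

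**Figure D4:**
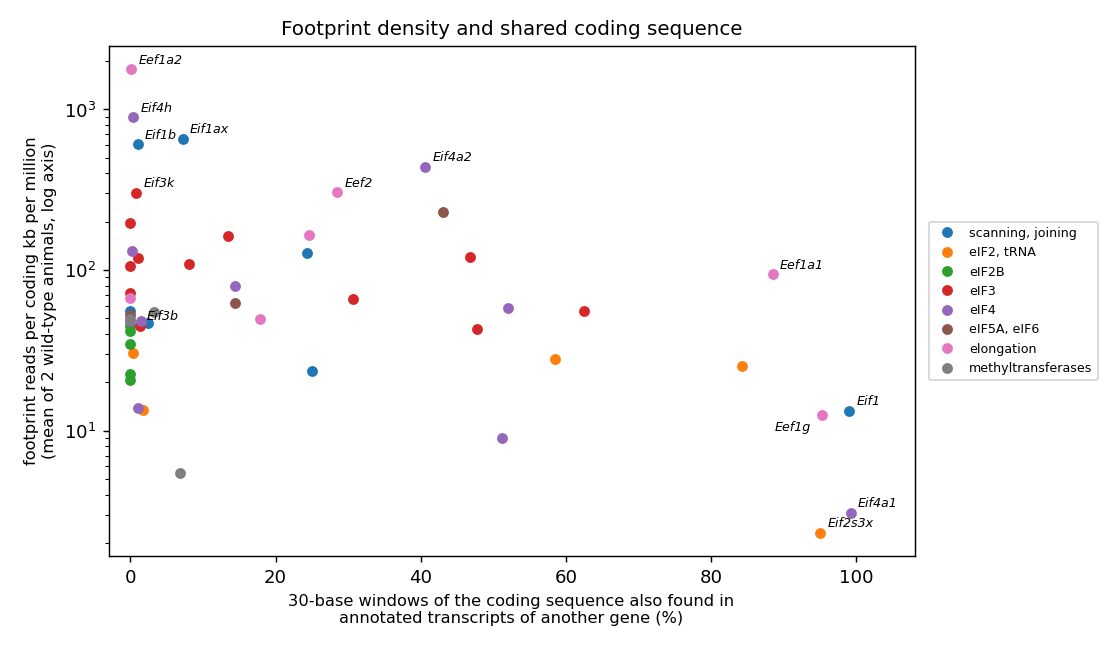
Footprint reads per coding kb and per M reads (mean of 2 WT animals, log axis) against the share of 30-base coding windows that also occur in annotated transcripts of another gene, for the 53 factor genes coloured by role. Eif4a1, Eif2s3x, Eef1g and Eif1, each with at least 95.0% of windows shared, lie near the bottom, between 2.31 and 13.4. Eef2kmt, with 6.9% shared, is also there at 5.41, and Eef1a2, with 0.1% shared, is at the top at 1783.

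Just outside the read count limit stood 6 genes with matching names: Eef1akmt3, Eef1akmt4, Eif3j1, Eif3j2, Eif4e1b and Eif4ebp3. The mean read count is a geometric mean and falls to 0 where 1 library has no reads. Eif3j1, a loosely bound eIF3 subunit, fell out that way, with total RNA of 13.3 and 10.2 RPKM in KO and 15.3 and 16.1 RPKM in WT but footprints of 0 and 0.195 RPKM in KO and 1.45 and 0.4998 RPKM in WT. Eif3j2 had a mean read count of 13.22. The least covered genes inside the limit were Eif2s3x at 125.78, Eef2kmt at 152.97 and Eif4a1 at 234.07.

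Other genes of the same machinery were read with the same fits. Of 9 regulators and factors left out by the naming rule, 19 release, recycling and accessory factors and 10 mitochondrial factors, 8 of the last tested, 0 were called by limma in total RNA. In these lists 1, 3 and 1 had an unadjusted p under 0.05, where 22.1% of all genes did. In footprints and in efficiency 0 were called as well. There 3 and 2 genes over all lists had an unadjusted p under 0.05, against 10.4% and 4.55% of all genes. Eif4ebp2, the eIF4E-binding protein of brain that mTORC1 phosphorylates, had total RNA of 1271 and 1047 RPKM in KO and 878.5 and 892.8 RPKM in WT (0.38, SE 0.10, adjusted p = 0.112 by limma). Limma-voom on recovered reads called Eif4ebp2, at 0.40 with an adjusted p of 0.0159, where it called 11.8% of all genes in total RNA. This was the only gene of these lists that limma-voom called in total RNA, footprints or efficiency. Its footprints were level, at 258.0 and 238.9 RPKM in KO and 255.8 and 243.5 RPKM in WT. Pabpc1, the cytosolic poly(A)-binding protein, had footprints of 691.5 and 712.4 RPKM in KO and 866.1 and 809.7 RPKM in WT, with total RNA of 506.7 and 371.5 RPKM in KO and 378.9 and 318.3 RPKM in WT. Its footprints did not overlap, its total RNA did, and its efficiency differed by -0.57 (SE 0.22, adjusted p = 0.997 by limma).

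Some markers of other cells were called by limma between the genotypes in total RNA, beside 4.09% of all genes. Of 7 granule neuron markers 2 were called higher in KO total RNA, of 6 microglial markers 2 were called lower, and of 6 oligodendrocyte markers 1 was called lower. No marker of any list was at 0 in every library. The summed granule marker level was 4491 and 4436 RPKM in KO and 3479 and 3825 RPKM in WT. The summed microglial level was 149.8 and 153.5 RPKM in KO and 199.7 and 209.5 RPKM in WT, and the oligodendrocyte level 2033 and 1931 RPKM in KO and 2825 and 2291 RPKM in WT. Of the 5 Purkinje cell and 5 astrocyte markers 0 were called by limma, of 4 tested choroid plexus markers 0, and of 5 brainstem markers 1, higher in KO. The brainstem sum given above did not follow that marker: it was highest in WT animal 2 and lowest in WT animal 3. In footprints limma called 0 markers of any list, and between 0 and 5 of a list had an unadjusted p under 0.05. The part of the marked cells in the differences of the factors was not tested.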

How the data were processed

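The members and the gene lists were chosen with earlier results of these data known. The submitters' processing notes name the tools Bowtie, STAR and Cufflinks and the build mm10, and their versions, settings and counting rule are not given in the sources used here. The authors deposited RPKM per library and, in a second table, translational efficiency per animal as a ratio of footprint to total RNA RPKM, which matched that quotient within 2% in all 47790 values checked. The mean read count deposited by the authors proved to be geometric: taken so, 99.97% of 3880 recovered values of low genes (means from 2 to 20) lay within 0.1 of whole reads, and 20.1% if taken as arithmetic. Whole reads were recovered with it for 13880 genes. Of 10 libraries 8 have a column, and 2 total RNA libraries (KO 2 and WT 1) were not analysed here.

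Differences were fitted by limma (version 3.58.1, R 4.3.3) over the whole table, taking log2(RPKM + 1), genes whose mean RPKM reached 1 and a trend of variance with level. Efficiency was the interaction term over 8 libraries. Adjusted p is by Benjamini-Hochberg, and intervals cover 95%. In total RNA and in footprints the p-values measure the spread between 2 animals per genotype, which the labels number as separate animals. The efficiency p-values and intervals come from a fit without a term for the animal. It treats the 2 libraries of a lysate as independent, so these values measure spread between libraries and not that of the ratio between animals. Footprints and total RNA of an animal come from 1 lysate, which pairs them, and the fit with the animal as a block is an alternative. Alternatives were a pseudocount of 0.1, no filter, a mean read count of 20 as filter, quantile normalization, no trend, all 8 libraries in 1 fit, voom with trimmed-mean (TMM) factors on recovered reads, differences per animal and leaving out each animal. Named factors are the 4 highest and 4 lowest differences in each comparison plus core subunits of each role. Gene spans and coding sequences came from GENCODE M21 and promoter windows from RefSeq.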

Additional observations from a re-analysis of the deposited data

How the results depend on the processing

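The count of called factors was 0 under each alternative run in total RNA, footprints and translational efficiency, except limma-voom on recovered reads in total RNA, which called 1, Eif4a1, at -0.47 (adjusted p 0.0426, against 0.122 to 0.702 under the other alternatives). Leaving out single animals gave 0 to 0 called factors in each comparison, with medians from -0.079 to -0.015 in total RNA, -0.059 to -0.020 in footprints and -0.023 to 0.067 in efficiency. The median footprint difference was 0.002 after quantile normalization and -0.016 with limma-voom, and the cause was not tested. With the animal as a replicate block the efficiency median was -0.013 with 0 called factors, the same as without it. Every animal has both kinds of library, so the block leaves each estimate unchanged by design. The equal median therefore says nothing about the pairing. KO and WT animals were not paired with each other. They share only the number 3, and the labels do not tie a number to a litter or day. Of 657 values of single genes under alternatives, 36 had the opposite sign, in 31 of them with both values within 1 SE of 0. The other 5 came from leaving out 1 animal. Without single animals, Eef1a1 ran from -0.02 (without WT 2) to 0.25 in total RNA and from -0.38 to 0.36 (without KO 1) in footprints, and Eif6 from -0.13 (without WT 2) to 0.40 in total RNA. Footprints of Eif5 ran from -0.14 (without KO 1) to 0.42, and those of Eif2s2 from -0.74 to 0.22 (without KO 3). The causes were not tested. With 1 animal left in a genotype, its spread is assumed to equal that of the other, and 0 called factors from such a fit says nothing about stability. Having 2 animals per genotype limits the precision, and for the least covered factors, such as Eef2kmt, low read counts do so as well.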
